A study of Gallus gallus with 58 samples.

Results

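Most of the genes described here encode enzymes, and 1 enzyme partner, that turn arachidonic acid into leukotrienes, prostaglandins and thromboxane. MGST1 is included as a family relative of ALOX5AP and PTGES. The set named ALOX5, ALOX5AP, LTA4H, MGST1, PTGS1, PTGS2, PTGES, HPGDS and TBXAS1, and a gene was read from the probe set whose only gene symbol on the platform was its own. Of the 9 genes, 8 had such a probe set, 1 each, among 11528 genes that could be read in this way and 20804 probe sets on the array. ALOX5 was not analysed here. The chicks (Gallus gallus) had just hatched, and RNA was taken from their whole blood, with 1 chick per array and 58 arrays in all. Chicks were injected on the day of hatch with CpG-ODN 2007, a short synthetic DNA that stimulates the chicken receptor TLR21, or belonged to the control group. Blood was taken after 3 h (10 CpG and 10 control chicks), at day 3 (D3, 8 and 8) or at day 6 (D6, 10 and 12), each time from other chicks. The labels used here give neither the breed and sex of the chicks nor what the controls received. Time after injection is also age in this design. Nothing in the labels says whether chicks shared a pen or a hatch, so p-values measure the spread between these birds.

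Eicosanoids are short-lived lipid signals made from arachidonic acid, which phospholipases release from membranes. In the leukotriene branch, 5-lipoxygenase (ALOX5) works with its membrane partner ALOX5AP, also called FLAP, and LTA4H converts the product to leukotriene B4, which attracts granulocytes in mammals. In the prostaglandin branch, the cyclooxygenases PTGS1 and PTGS2 make prostaglandin H2, which PTGES turns into prostaglandin E2, HPGDS into prostaglandin D2 and TBXAS1 into thromboxane A2. MGST1 is a membrane glutathione transferase of the same protein family as ALOX5AP and PTGES. In mammals leukocytes make leukotriene B4 and platelets make thromboxane, and in birds the nucleated thrombocyte takes the place of the platelet.

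Values are RMA expression values on the log2 scale, so a difference of 1 is a 2-fold difference. They can be compared between chicks for 1 gene, but not between genes. Over all arrays, the means of ALOX5AP, LTA4H, HPGDS, TBXAS1, PTGS1 and MGST1 were above that of 59.6% or more of all probe sets. The means of PTGES (5.98) and PTGS2 (5.12) were below the level of 6.26 under which 40% of probe sets lay, and the table does not say whether such probe sets were detected. Array medians lay between 6.64 and 6.78. Arrays were also set against others of their group, and the median correlation ran from 0.942 to 0.980, and 4 arrays stood apart by this measure: CpG chick 20 at D3, CpG chick 31 at D6, control chick 74 at 3 h and control chick 86 at D3. The leading CpG differences at each time, the count of correlated pairs, and age changes whose call differed are also given without them.

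At D6 the leukotriene-branch genes ALOX5AP and LTA4H, with MGST1 and the thromboxane synthase gene TBXAS1, were higher in CpG chicks than in controls. In total 4 of the 8 genes passed the test as higher and 0 as lower, where 1.52% of all probe sets passed as higher and 2.11% in either direction. The threshold throughout was an adjusted p of 0.05 from limma, with Benjamini-Hochberg adjustment over all probe sets. The median difference over the 8 genes was 0.30 log2 units, against -0.02 over all probe sets. The genes were chosen with earlier results of these data known, so these contrasts describe the set and do not test it. The cyclooxygenase genes, PTGES and HPGDS did not pass. Blood is a mixture, and in bulk RNA fewer cells of a type and less RNA per cell cannot be told apart.

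ALOX5AP, the partner that presents arachidonic acid to 5-lipoxygenase, had a lowest, median and highest log2 value of 6.44, 7.27 and 7.70 in the 12 controls at D6. In the 10 CpG chicks the values were 7.77, 8.14 and 8.88. Every CpG chick lay above every control, a separation found in this direction for 0.139% of all probe sets. The difference was 1.07 ± 0.18 (log2, SE; 95% interval 0.71 to 1.44), which is 2.10-fold (limma, adjusted p = 0.000387). Among the 20804 probe sets it ranked 11 by p.

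MGST1, which detoxifies lipid hydroperoxides with glutathione, had the widest spread of the called genes. Its control values at D6 were 5.21, 6.19 and 6.88 (lowest, median, highest), and the CpG values were 6.62, 7.39 and 8.46. The groups overlapped, with 8 of 10 CpG chicks above all controls. The difference was 1.37 ± 0.24 (95% interval 0.88 to 1.85), or 2.58-fold (limma, adjusted p = 0.000495).

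LTA4H, the hydrolase that makes leukotriene B4, differed less. Controls at D6 had 6.28, 6.85 and 7.18, and CpG chicks 6.94, 7.28 and 7.86. The ranges overlapped, and 6 of 10 CpG chicks lay above all controls. The difference was 0.54 ± 0.12 (95% interval 0.30 to 0.77), or 1.45-fold (limma, adjusted p = 0.00531).

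TBXAS1, the thromboxane synthase gene, had 7.31, 8.32 and 8.66 in controls at D6 and 8.54, 8.68 and 9.04 in CpG chicks. Here 5 of 10 CpG chicks lay above all controls, and the lowest value of the 22 belonged to control chick 106. The difference was 0.51 ± 0.13 (95% interval 0.25 to 0.76), or 1.42-fold (limma, adjusted p = 0.0176). Without the arrays that stand apart, 4 genes again passed at D6, with differences of 1.07 for ALOX5AP, 1.35 for MGST1, 0.52 for LTA4H and 0.49 for TBXAS1. Leaving out any 1 of the 22 arrays ended none of these 4 calls.

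The genes for the shared cyclooxygenase step and for the other prostaglandin enzymes did not pass at D6. PTGS1, the constitutive cyclooxygenase in mammals, had medians of 7.11 in controls and 7.20 in CpG chicks, and the difference was 0.10 ± 0.12 (limma, adjusted p = 0.78). PTGS2, which inflammatory signals induce in mammals, had a median of 5.10 in both groups and differed by 0.10 ± 0.12, with a 95% interval of -0.14 to 0.34 (limma, adjusted p = 0.796). PTGES, which makes prostaglandin E2, differed by 0.03 ± 0.10 (limma, adjusted p = 0.946). These intervals bound the difference and do not show that the groups were alike, and PTGS2 and PTGES are among the dimmer probe sets.

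HPGDS, the prostaglandin D2 synthase of blood cells, had 6.38, 8.39 and 9.24 in controls at D6 and 5.80, 8.52 and 9.16 in CpG chicks. The groups overlapped almost fully, and the lowest values came from control chick 101 and from CpG chick 31, whose array stands apart. The difference was -0.15 ± 0.32 (95% interval -0.79 to 0.49; limma, adjusted p = 0.905), and 0.11 ± 0.30 without the arrays that stand apart.

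**Figure D1:**
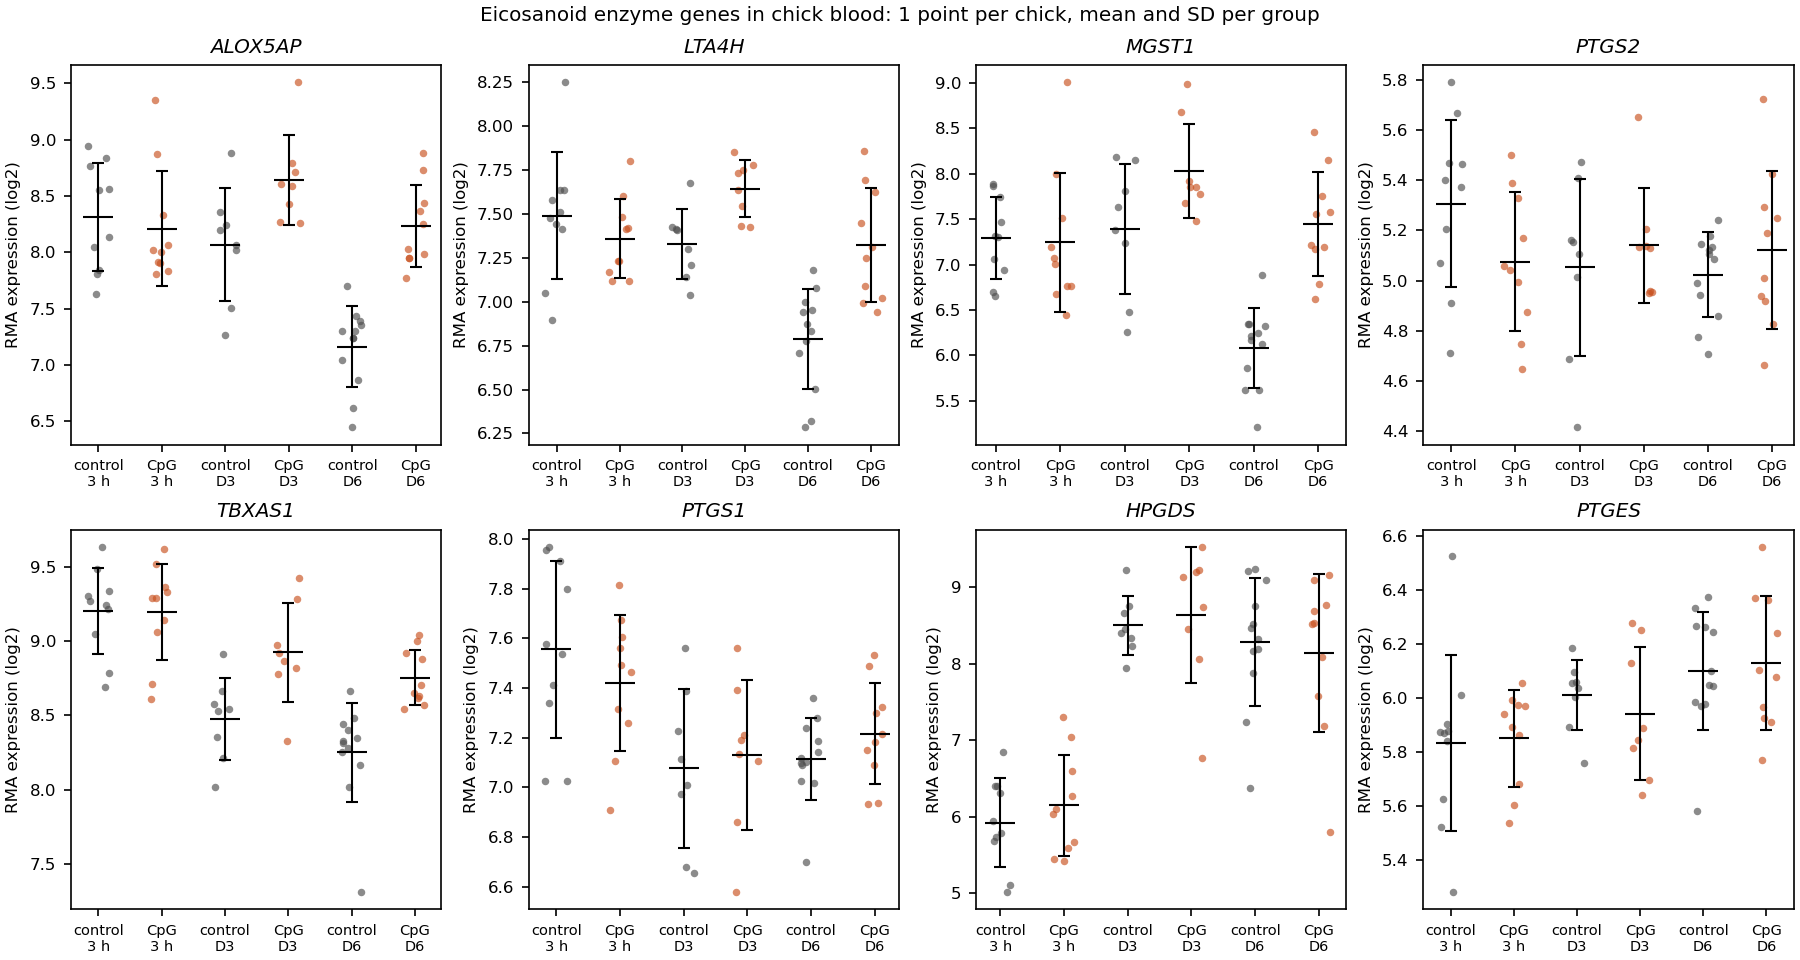
RMA expression (log2) of the 8 genes in each of the 6 groups, with 1 point per chick (grey control, orange CpG) and a bar for the group mean ± SD; each panel has its own vertical axis. At D6 the ALOX5AP values of the CpG chicks, 7.77 to 8.88, lie above those of the controls, 6.44 to 7.70. The HPGDS means at 3 h are below those of the later times in both treatments. Its range in the D3 controls lies above those of both 3 h groups, and the ranges of the other later groups overlap those at 3 h.

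At D3 none of the 8 genes passed the test, where 0.312% of all probe sets did, while 4 of the 8 had an unadjusted p under 0.05. The genes called at D6 had differences above 0, which with 6 marker scores as covariates were below 0 for ALOX5AP (-0.20), LTA4H (-0.18) and MGST1 (-0.30), none of them called. ALOX5AP had 7.27, 8.13 and 8.88 in the 8 controls and 8.26, 8.60 and 9.51 in the 8 CpG chicks, a difference of 0.58 ± 0.21 (limma, adjusted p = 0.183). Only 1 CpG chick lay above all controls, chick 20, whose array stands apart. MGST1 differed by 0.64 ± 0.28 (adjusted p = 0.265), TBXAS1 by 0.45 ± 0.15 (adjusted p = 0.134) and LTA4H by 0.32 ± 0.14 (adjusted p = 0.252), all by limma. For TBXAS1 and for LTA4H, 4 of 8 CpG chicks lay above all controls. Without the arrays that stand apart the differences were 0.50 ± 0.22 for ALOX5AP, 0.61 ± 0.30 for MGST1, 0.39 ± 0.15 for TBXAS1 and 0.27 ± 0.15 for LTA4H. HPGDS, PTGS1, PTGS2 and PTGES differed by 0.13 ± 0.37, 0.05 ± 0.13, 0.09 ± 0.14 and -0.07 ± 0.12. The median over the 8 genes was 0.23, against -0.02 over all probe sets.

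At 3 h none of the 8 genes passed, and the share over all probe sets was 0%. For 0 of the 8 genes was the unadjusted p under 0.05, against 1037 of all 20804 probe sets. The differences ran from -0.23 ± 0.12 for PTGS2 to 0.22 ± 0.33 for HPGDS, and the adjusted p from 0.973 to 0.998 (limma). ALOX5AP differed by -0.10 ± 0.19, LTA4H by -0.13 ± 0.12, MGST1 by -0.05 ± 0.25 and TBXAS1 by -0.01 ± 0.13. Without the arrays that stand apart, none of the 8 passed either, and PTGS2 differed by -0.18 ± 0.11 and HPGDS by 0.12 ± 0.31. In each of the 4 genes called at D6 the ranges of the 10 CpG and 10 control chicks overlapped.

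**Figure D2:**
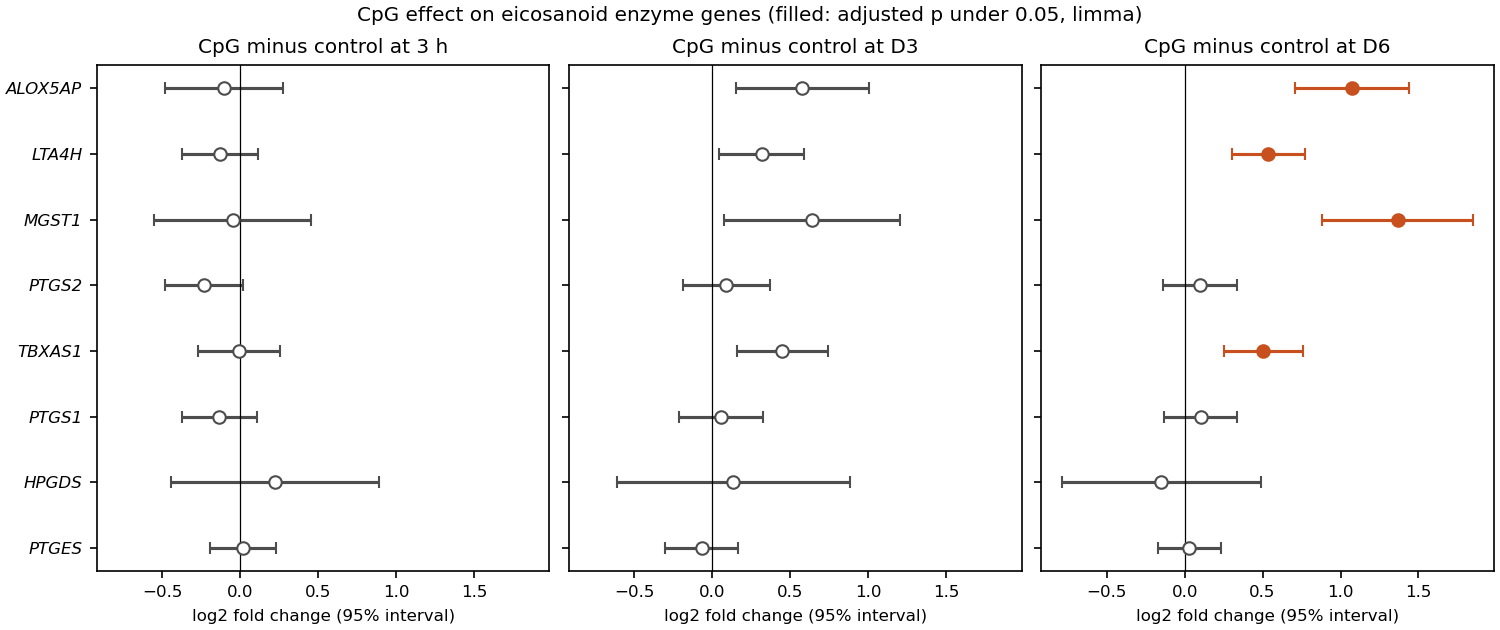
CpG minus control at 3 h, D3 and D6 for the 8 genes, as log2 fold change with its 95% interval; filled orange points passed the test at an adjusted p under 0.05 (limma). The 4 filled points are ALOX5AP (1.07), MGST1 (1.37), LTA4H (0.54) and TBXAS1 (0.51) at D6, and no gene is filled at 3 h or D3.

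The change of the CpG effect between times was tested directly. From 3 h to D6 it was called for 3 of the 8 genes, all higher, against 0.553% of all probe sets called higher and 0.596% called in either direction. ALOX5AP changed by 1.18 ± 0.26 (limma, adjusted p = 0.0161), a call that held when any 1 of the 42 arrays of these 4 groups was left out. MGST1 changed by 1.42 ± 0.35 (limma, adjusted p = 0.0335), but the call was lost in 14 of the 42 fits that left out 1 array, where adjusted p ran up to 0.071. LTA4H changed by 0.67 ± 0.17 (limma, adjusted p = 0.041), and lost the call in 20 of the 42 such fits (adjusted p up to 0.0833) and without the arrays that stand apart (0.66 ± 0.18, adjusted p = 0.0578). TBXAS1 changed by 0.51 ± 0.18 and did not pass (limma, adjusted p = 0.232). From 3 h to D3 none of the 8 passed (0.00961% of all probe sets did; lowest adjusted p 0.628), and from D3 to D6 none passed either (0% of all; lowest adjusted p 0.859).

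In control chicks the genes moved with age. From 3 h to D6 all 8 passed the test, 2 higher and 6 lower, where 48% of all probe sets passed, 26.2% higher and 21.7% lower. The median over the 8 genes was -0.57, against 0.06 over all probe sets. The control chicks at D6 enter both this comparison and the CpG effect at D6, so the 2 results are not independent.

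HPGDS had the largest change of the 8 genes. At 3 h its control values were 5.02, 5.87 and 6.85, and at D3 they were 7.94, 8.43 and 9.23. All 8 control chicks at D3 lay above all 10 at 3 h, as 1.52% of all probe sets did. The difference was 2.58 ± 0.35, or 5.97-fold (limma, adjusted p = 1.13e-07; 24.8% of all probe sets passed in this comparison, 11.8% higher and 13% lower). From D3 to D6 it did not pass (-0.21 ± 0.34), and D6 remained 2.36 ± 0.32 above 3 h (adjusted p = 1.56e-08), with 11 of 12 chicks above all 3 h controls.

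HPGDS rose in CpG chicks as well. Their values at 3 h were 5.42, 6.07 and 7.30 and at D3 6.76, 8.94 and 9.52, with 7 of 8 D3 chicks above all at 3 h; chick 14 was the lowest. The rise was 2.49 ± 0.35 (limma, adjusted p = 5.02e-07), in a comparison in which 19.4% of all probe sets passed and 9.68% were higher. At D6 the CpG chicks were 1.99 ± 0.33 above 3 h (adjusted p = 3.01e-06). The HPGDS calls at D3 and D6 against 3 h held, in both treatments, with every alternative processing that was run.

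TBXAS1 fell in controls, from 8.69, 9.26 and 9.64 at 3 h to 8.02, 8.54 and 8.91 at D3 and 7.31, 8.32 and 8.66 at D6. All 12 controls at D6 lay below all 10 at 3 h, as 4.65% of all probe sets did. The fall from 3 h was -0.73 ± 0.14 at D3 (limma, adjusted p = 5.28e-05) and -0.95 ± 0.13 at D6 (adjusted p = 8.68e-09). PTGS1 fell early as well, by -0.48 ± 0.13 from 3 h to D3 (adjusted p = 0.00331), and at D6 was -0.44 ± 0.12 from 3 h (adjusted p = 0.00129). In CpG chicks TBXAS1 was lower at D6 than at 3 h by -0.44 ± 0.13 (adjusted p = 0.00515), among 44.6% of all probe sets called (24.1% higher, 20.5% lower), and PTGS1 did not pass (-0.20 ± 0.12, adjusted p = 0.16).

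ALOX5AP, LTA4H and MGST1 fell later in controls, between D3 and D6, when 14.7% of all probe sets passed and 7.95% were lower. ALOX5AP fell by 0.91 ± 0.19 (limma, adjusted p = 0.000947), LTA4H by 0.54 ± 0.12 (adjusted p = 0.0022) and MGST1 by 1.31 ± 0.26 (adjusted p = 0.000332). Against 3 h, the D6 differences in controls were -1.15 ± 0.18 for ALOX5AP (adjusted p = 5.24e-07), -0.70 ± 0.12 for LTA4H (adjusted p = 1.58e-06) and -1.21 ± 0.24 for MGST1 (adjusted p = 3.74e-05). CpG chicks at D6 differed from CpG chicks at 3 h by 0.02 ± 0.19, -0.04 ± 0.12 and 0.20 ± 0.25 in the same 3 genes, and none passed. The difference between these 2 age changes is the change of the CpG effect from 3 h to D6 given above.

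Of the dimmer genes, PTGES was 0.27 ± 0.10 higher and PTGS2 -0.28 ± 0.12 lower in controls at D6 than at 3 h (limma, adjusted p = 0.0255 and 0.0459). The PTGES call was lost in 3 of the 22 fits that left out 1 array, all without a 3 h control (chick 78, 79 or 81). The PTGS2 call was lost in 11 of the 22 fits that left out 1 array and without the arrays that stand apart (-0.23 ± 0.11, adjusted p = 0.0727). PTGES was also higher in CpG chicks at D6 than at 3 h, by 0.28 ± 0.11 (adjusted p = 0.0274), a call that 5 of the 20 such fits lost. MGST1 was 0.78 ± 0.27 higher in CpG chicks at D3 than at 3 h (adjusted p = 0.0292), and 0.65 ± 0.27 without the arrays that stand apart (adjusted p = 0.0808); 6 of the 18 fits that left out 1 array lost the call. PTGS1 in CpG chicks at D3 against 3 h did not pass with all arrays and passed without those arrays (-0.33 ± 0.12, adjusted p = 0.0457). From D3 to D6, none of the 8 passed in CpG chicks, where 27.1% of all probe sets did; LTA4H came nearest with -0.32 ± 0.13 (adjusted p = 0.0569).

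Ordered by group mean, the 6 groups of a gene were often not separated from their neighbours by more than the larger of the 2 SDs. In ALOX5AP the D6 controls (7.16 ± 0.36, SD, n = 12) stood below the D3 controls (8.07 ± 0.50, n = 8), and the other 4 neighbouring steps were within the spread. In LTA4H the D6 controls (6.79 ± 0.29, n = 12) stood below the D6 CpG chicks (7.32 ± 0.32, n = 10). In MGST1 the D6 controls (6.08 ± 0.44, n = 12) stood below the rest. The D3 CpG chicks (8.03 ± 0.52, n = 8) were highest by a gap of 0.579, barely more than the SD of 0.572. Their range, 7.48 to 8.98, overlapped that of the D6 CpG chicks, 6.62 to 8.46. HPGDS had 1 such step, between the 3 h CpG chicks (6.15 ± 0.66, n = 10) and the D6 CpG chicks (8.14 ± 1.03, n = 10). TBXAS1 had 1 as well, from the D3 controls (8.48 ± 0.28, n = 8) to the D6 CpG chicks (8.76 ± 0.19, n = 10). That gap of 0.279 barely exceeded the SD of 0.277. PTGS1, PTGS2 and PTGES had none.

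Within groups, the genes fell into sets that varied together from chick to chick. The deviations of each chick from its group mean were correlated for the 28 pairs of genes over 58 chicks, and 8 pairs passed a permutation test within groups with Benjamini-Hochberg adjustment over the 28. Over all groups, ALOX5AP, LTA4H, MGST1 and PTGS2 were positively correlated in all 6 pairs among them. ALOX5AP and MGST1 were closest (Pearson r = 0.79, Spearman rho = 0.76, each with permutation p = 1e-05, the smallest that 100000 permutations can give; adjusted p = 9.33e-05). Without the 2 chicks farthest from the ALOX5AP median r was 0.78, and within single groups r ran from 0.43 to 0.94. Without the arrays that stand apart 8 pairs passed, the same pairs as with all chicks, and r was 0.79 for ALOX5AP with MGST1. In the D6 controls alone, r among ALOX5AP, LTA4H, MGST1 and PTGS2 ran from -0.23 (ALOX5AP with PTGS2) to 0.64 (LTA4H with MGST1). It was 0.11 for ALOX5AP with LTA4H and 0.15 for PTGS2 with MGST1. The r values within single groups were not tested.

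LTA4H and MGST1 had r = 0.63 and rho = 0.69 (permutation p = 1e-05 each, adjusted p = 9.33e-05; r = 0.63 without 2 chicks). PTGS2, the inducible cyclooxygenase, had r = 0.58 and rho = 0.60 with MGST1 (permutation p = 2e-05 each, adjusted p = 0.00014; r = 0.59 without 2 chicks). It had r = 0.53 and rho = 0.51 with ALOX5AP (permutation p = 0.00016 and 0.00021, adjusted p = 0.00064; r = 0.52 without 2 chicks). So a gene with no called CpG effect varied between chicks with 3 that had one. Its r with ALOX5AP was -0.23 in the D6 controls and between 0.50 and 0.89 in the other 5 groups. LTA4H had r = 0.52 and rho = 0.47 with PTGS2 (permutation p = 8e-05 and 0.00042, adjusted p = 0.000373; r = 0.52 without 2 chicks). It had r = 0.51 and rho = 0.57 with ALOX5AP (permutation p = 7e-05 and 1e-05, adjusted p = 0.000373; r = 0.51 without 2 chicks).

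TBXAS1, the fourth gene called at D6, was in another set over all groups, and its r within single groups was not tested. It had r = 0.73 and rho = 0.72 with PTGS1 (permutation p = 1e-05 each, adjusted p = 9.33e-05), 0.71 without 2 chicks, and between 0.34 and 0.92 in single groups. TBXAS1 and PTGS1 act in sequence in thromboxane synthesis. With ALOX5AP, TBXAS1 had r = 0.05 and rho = 0.08 (permutation p = 0.731 and 0.562, adjusted p = 0.787; r = -0.02 without 2 chicks), and r ran from -0.18 to 0.81 in single groups, highest in the D6 CpG chicks. With LTA4H and MGST1, TBXAS1 had r = 0.23 each over all groups and did not pass. Within the D6 CpG chicks these were 0.90 and 0.78, r with PTGS2 was 0.39, and r with PTGS1 was at its lowest, 0.34. HPGDS had the 1 negative pair that passed by Pearson r over all chicks, with PTGS1 (r = -0.33, rho = -0.37; permutation p = 0.00806 and 0.00463, adjusted p = 0.0282; r = -0.49 without 2 chicks). In the 3 h controls this pair had r = 0.38, and it was below 0 in the other 5 groups. HPGDS with TBXAS1 did not pass by r (-0.23, adjusted permutation p = 0.232). That pair passed by rho (-0.33, adjusted permutation p = 0.0457) and by r without 2 chicks (-0.34, adjusted permutation p = 0.047).

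Markers of blood cell types also differed between CpG and control chicks. None of the 8 genes is on a marker list. At D6, 4 of 14 measured heterophil markers (27 listed), 6 of 10 monocyte markers (15 listed) and 2 of 9 thrombocyte markers (16 listed) were higher in CpG chicks. Of all probe sets, 1.52% were called higher there. The heterophil is the bird counterpart of the neutrophil. In a sum of linear levels the brightest probe sets weigh most. Summed linear levels of the heterophil markers were 1622 to 2481 in D6 controls and 1883 to 5844 in CpG chicks. Those of the monocyte markers were 1347 to 2468 and 2370 to 4986, and those of the thrombocyte markers 14295 to 18905 and 10616 to 20181. In each of these 3 lists 2 markers had means under the 40% level. Of 13 B cell, 16 T cell and 6 basophil, mast cell and eosinophil markers, 1, 0 and 0 were higher, and of 11 erythroid markers 1 was lower. At D3, where none of the 8 genes was called, 6 of 14 heterophil markers, 1 of 10 monocyte markers and 1 of 9 thrombocyte markers were higher in CpG chicks, with summed levels of the heterophil markers of 2375 to 5316 in controls and 3730 to 10623 in CpG chicks. At 3 h none of the markers passed. Of all probe sets, 0.312% passed at D3 in either direction and 0% at 3 h. Of the 10 monocyte markers, 0 had a difference above 0 at 3 h, with a median of -0.27 against -0.01 over all probe sets.

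Scores of these lists, each the mean z-score of its measured markers, were correlated with the genes in the same way (56 pairs, 18 passed). The heterophil score had r = 0.73 with ALOX5AP, 0.70 with MGST1, 0.69 with PTGS2 and 0.64 with LTA4H (permutation p = 1e-05 and adjusted p = 6.22e-05 each; rho 0.80, 0.74, 0.68 and 0.64; without 2 chicks 0.72, 0.72, 0.70 and 0.67). The monocyte score had r = 0.73, 0.70, 0.67 and 0.52 with the same 4 genes (rho 0.75, 0.71, 0.62 and 0.59; permutation p 4e-05 or lower, adjusted p 0.000204 or lower; without 2 chicks 0.72, 0.73, 0.63 and 0.56). In the D6 controls, r with the monocyte score was 0.14 for ALOX5AP and 0.11 for MGST1, against 0.83 and 0.88 in the D6 CpG chicks. With the heterophil score these were 0.38 and 0.47 in the D6 controls, against 0.83 for both in the D6 CpG chicks. With the thrombocyte score they were 0.16 and 0.15 in the D6 controls, against 0.96 and 0.90 in the D6 CpG chicks. The thrombocyte score had r = 0.65 and rho = 0.58 with TBXAS1 (permutation p = 1e-05 and 2e-05, adjusted p = 6.22e-05; 0.62 without 2 chicks), and r was between 0.46 and 0.89 in every group. It was also correlated with LTA4H (r = 0.61, rho = 0.65), MGST1 (0.55 and 0.57), ALOX5AP (0.53 and 0.55), PTGS2 (0.48 and 0.43) and PTGS1 (0.40 and 0.34), with adjusted permutation p from 6.22e-05 to 0.00777. TBXAS1 and PTGS1 passed with the basophil, mast cell and eosinophil score too (r = 0.47 and 0.45, rho = 0.39 and 0.45, permutation p = 0.00017 and 0.00091, adjusted p = 0.000732 and 0.0034; without 2 chicks 0.40 and 0.43). PTGES passed with the B cell score (r = 0.40, rho = 0.37, permutation p = 0.00234, adjusted p = 0.00777; 0.37 without 2 chicks). PTGS2 passed with the erythroid score (r = -0.36, rho = -0.30, permutation p = 0.0115, adjusted p = 0.0358). That pair did not pass without 2 chicks (r = -0.33, adjusted p = 0.071) or without the arrays that stand apart (r = -0.24, adjusted p = 0.202), and the other 17 pairs passed in both. HPGDS passed with no score; its highest r was 0.33 with the erythroid score (rho = 0.07, permutation p = 0.0275, adjusted p = 0.077).

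**Figure D3:**
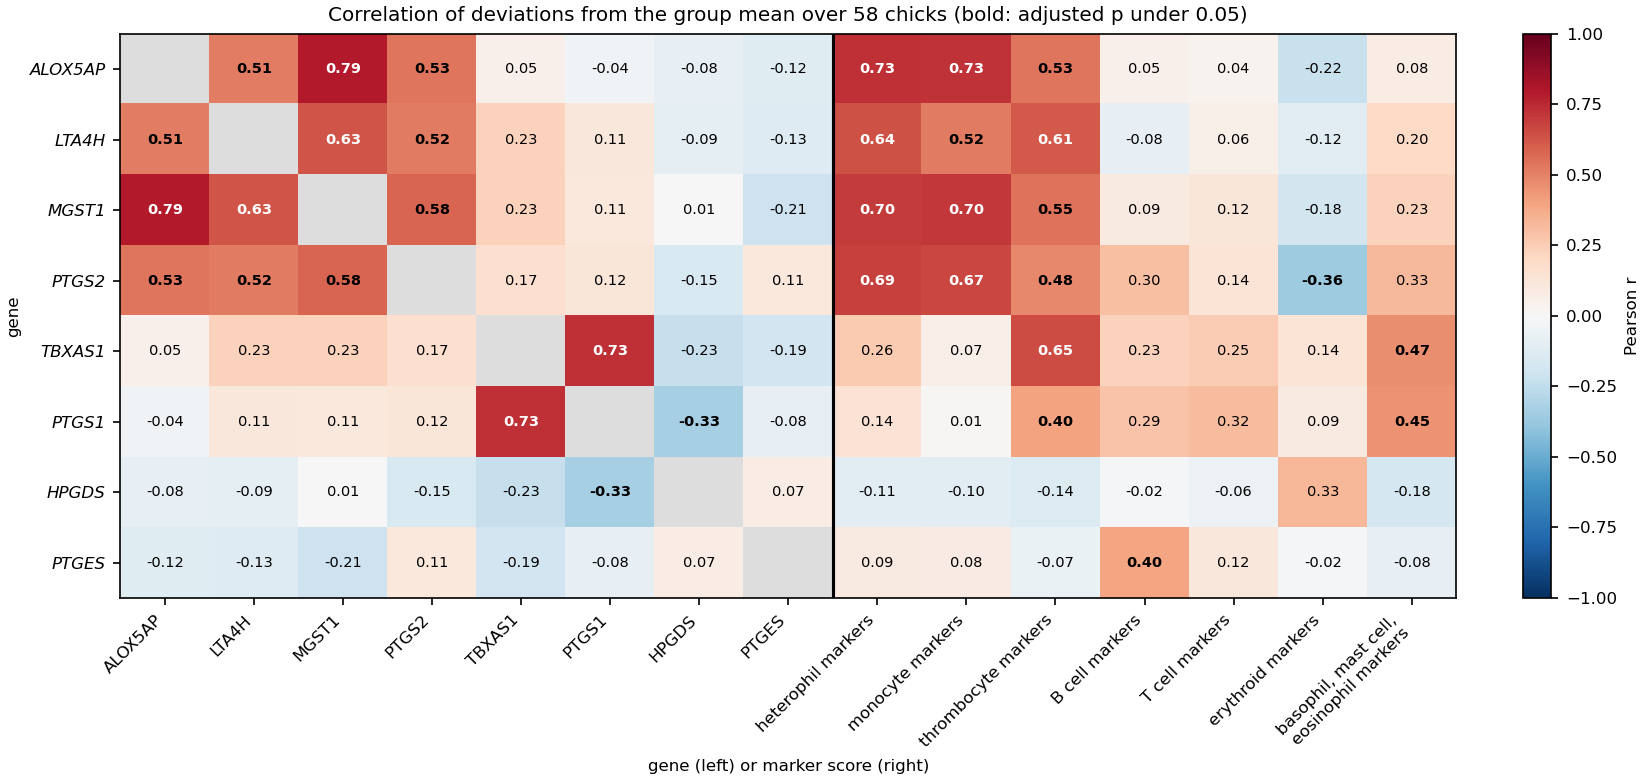
Pearson r between the deviations of the 58 chicks from their group means, for the 8 genes (left of the line) and the 7 marker scores (right); red is positive, blue negative, grey the diagonal, and bold numbers have an adjusted permutation p under 0.05. ALOX5AP, LTA4H, MGST1 and PTGS2 form a block with r from 0.51 to 0.79, and TBXAS1 pairs with PTGS1 (0.73) and the thrombocyte score (0.65).

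The CpG effect at D6 was refitted with these scores as covariates, a setting in part chosen after the values were seen. The heterophil, monocyte and thrombocyte scores hold markers that were themselves higher in CpG chicks at D6. The B cell score holds 1 marker that was higher, and the erythroid score 1 that was lower. Such a fit can therefore take out CpG effect along with the score, and the cause was not tested. Each score had a common slope over the groups. Its r with these genes differed between groups, and whether the slopes did was not tested. The spread of the scores differed too. The SD in D6 controls and D6 CpG chicks was 0.26 and 0.60 for the monocyte score, and 0.25 and 0.70 for the heterophil score. With the monocyte score alone, the effect was 0.27 ± 0.17 for ALOX5AP (limma, adjusted p = 0.449), 0.33 ± 0.23 for MGST1 (adjusted p = 0.505), 0.17 ± 0.13 for LTA4H (adjusted p = 0.562) and 0.45 ± 0.16 for TBXAS1 (adjusted p = 0.181). With the heterophil score alone ALOX5AP kept its call (0.57 ± 0.14, adjusted p = 0.0332), and MGST1 (0.72 ± 0.20, adjusted p = 0.0506), LTA4H (0.26 ± 0.10, adjusted p = 0.223) and TBXAS1 (0.38 ± 0.14, adjusted p = 0.161) did not. With the thrombocyte score alone ALOX5AP (0.73 ± 0.17, adjusted p = 0.0317) and MGST1 (0.90 ± 0.23, adjusted p = 0.0455) kept theirs, and LTA4H (0.29 ± 0.10, adjusted p = 0.247) and TBXAS1 (0.22 ± 0.11, adjusted p = 0.476) did not. With the B cell, T cell or erythroid score alone all 4 calls held. With the basophil, mast cell and eosinophil score TBXAS1 lost its call (0.38 ± 0.12, adjusted p = 0.0812). How many of all probe sets passed in each fit with a single score is not given here. Whether a call lost in such a fit was particular to the gene therefore cannot be told. With 6 scores together (all but the basophil, mast cell and eosinophil score) none of the 4 was called, and of all 20804 probe sets 4 were, against 440 without covariates. The effects were then 0.26 ± 0.14 for ALOX5AP, 0.31 ± 0.21 for MGST1, 0.14 ± 0.11 for LTA4H and 0.46 ± 0.11 for TBXAS1.

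**Figure D4:**
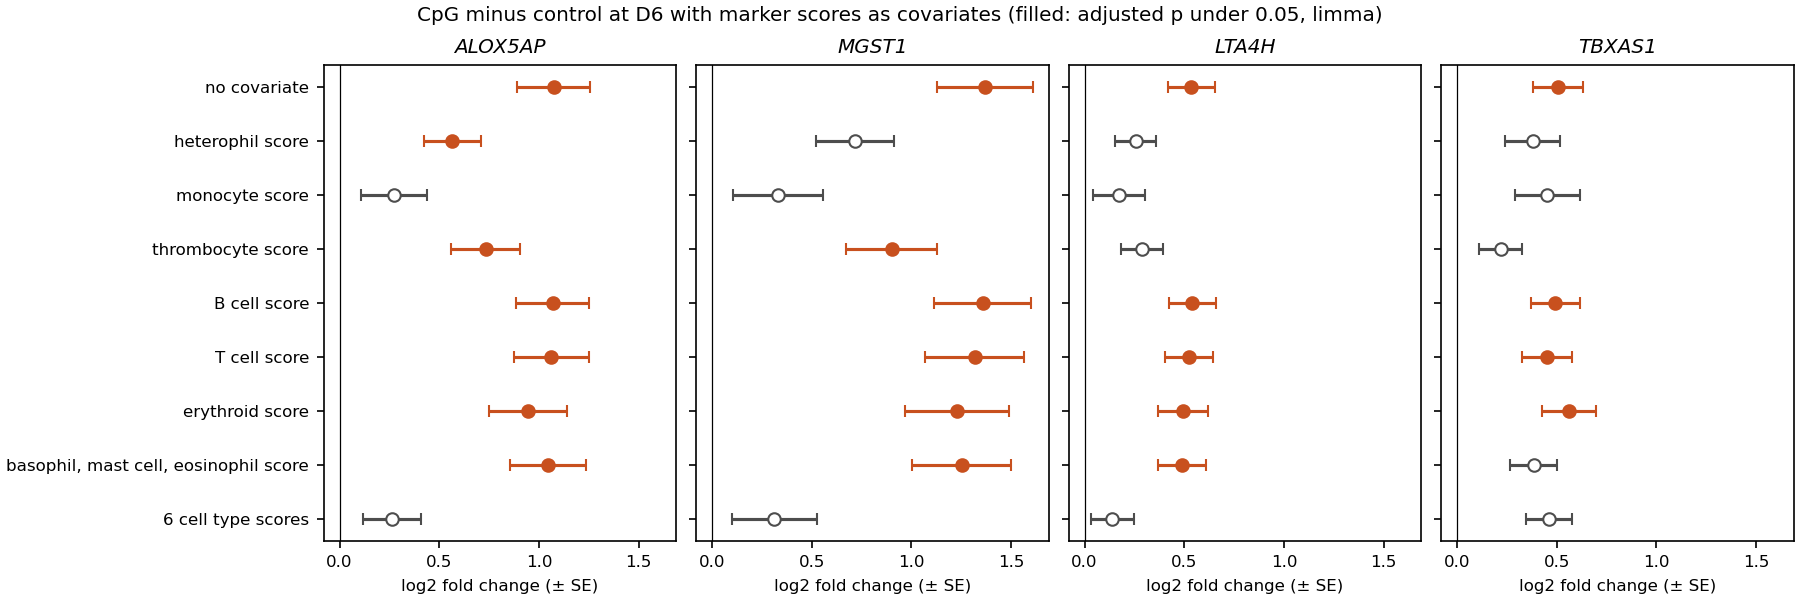
CpG minus control at D6 (log2 fold change ± SE) for the 4 called genes, without a covariate, with each marker score alone and with 6 scores together; filled orange points have an adjusted p under 0.05 (limma). ALOX5AP goes from 1.07 to 0.27 with the monocyte score, while TBXAS1 goes from 0.51 to 0.22 with the thrombocyte score and is 0.46, not called, with the 6 scores.

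The age changes in controls came with marker changes too: at D6 against 3 h, 13 of 14 heterophil markers and 7 of 10 monocyte markers were lower, and 12 of 16 T cell markers were higher. In this comparison 21.7% of all probe sets were called lower and 26.2% higher. Of 9 thrombocyte markers 5 were lower and 2 higher, and the thrombocyte score was 0.32 ± 0.38 (SD, n = 10) at 3 h and -0.39 ± 0.31 (n = 12) at D6. The summed linear level of the same markers, of which TUBB1 was the brightest (mean 12.5, log2), went the other way. It was 8900 to 14497 (median 11812) at 3 h and 14295 to 18905 (median 16089) at D6. With the 6 scores as covariates, ALOX5AP, LTA4H and MGST1 no longer passed in controls at D6 against 3 h. HPGDS was among the genes that kept their call, and not the only one. Its rise was then 2.07 ± 0.50 (limma, adjusted p = 0.0015), and it also kept its call at D3 (2.60 ± 0.46, adjusted p = 3.81e-05). Of 6 measured markers of basophils, mast cells and eosinophils, 0 were higher and 4 lower in the D6 controls than at 3 h.

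The genes whose deviations over the 58 arrays were most like those of each called gene were looked up among 11166 genes with a single official symbol, as a description with no test. For ALOX5AP they were SPI1 (r = 0.88), which encodes the myeloid transcription factor PU.1, CD44 (0.87), an adhesion receptor, and SERPINB6 (0.84), a protease inhibitor. For MGST1 they were ITGB2 (0.84), the integrin beta chain of leukocytes, LCP1 (0.84), an actin-bundling protein of leukocytes, and SPI1 (0.84). For LTA4H they were TLR7 (0.73), a receptor for RNA, ITGB2 (0.71) and NRK (0.68). SPI1 is on the monocyte list and ITGB2 on the heterophil list. For TBXAS1 they were LPP (0.88), ITPR2 (0.87), a calcium channel of the endoplasmic reticulum, and MIR1653 (0.87), which lies within LPP in the gene table. For HPGDS, added after its values were seen, the highest were lower, with AP2A2 at 0.56, SLC7A5 at 0.54 and SCOC at 0.54.

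Other genes of eicosanoid metabolism were read from a list of 92, of which 55 were measured: phospholipases and arachidonate handling (18), other synthesis enzymes (12), inactivation and transport (14) and receptors (12), with 1 probe set on 2 of these lists. The CpG effect passed for none at 3 h or D3, and for 1 at D6, higher, which is near the share over all probe sets (1.52% higher). The median of the 55 at D6 was 0.04, against -0.02 over all probe sets. The gene was MGLL, monoglyceride lipase, which releases arachidonic acid from an endocannabinoid. It had 6.59, 6.73 and 7.00 in D6 controls and 6.77, 7.28 and 7.62 in CpG chicks, with 9 of 10 CpG chicks above all controls. The difference was 0.51 ± 0.10 (limma, adjusted p = 0.00254), and with 6 scores as covariates 0.10 (adjusted p = 0.834). Its CpG effect changed by 0.60 ± 0.15 from 3 h to D6 (adjusted p = 0.0335), a call that 12 of 42 fits leaving out 1 array lost.

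With age, 12 of the 55 were higher and 18 lower in controls at D6 than at 3 h, beside 26.2% and 21.7% of all probe sets. Of the 18 phospholipase and arachidonate handling genes 2 were higher and 10 lower, with a median of -0.50. PLA2G4A, the cytosolic phospholipase that releases arachidonic acid, went from 6.82, 7.13 and 8.04 to 5.03, 5.57 and 5.89, with no overlap (as for 4.65% of all probe sets) and a difference of -1.75 ± 0.15 (limma, adjusted p = 8.57e-14). PTAFR, the receptor for platelet-activating factor, fell by 1.19 ± 0.11 (adjusted p = 6.76e-13). The rises with the smallest p were those of ABCC4, a transporter that exports prostaglandins in mammals, and ELOVL5, an elongase of polyunsaturated fatty acids. ABCC4 went from 6.73, 7.03 and 7.41 to 9.99, 10.3 and 10.8, a difference of 3.29 ± 0.25 (adjusted p = 2.59e-15), and ELOVL5 rose by 1.29 ± 0.14 (adjusted p = 3.83e-11). In both genes all 12 controls at D6 lay above all 10 at 3 h, as for 3.55% of all probe sets.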

How the data were processed

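The deposited log2 values were made by the authors with RMA, a step named in the submitters' processing notes with no version given in the sources used here. Of 20804 probe sets, 12300 have 1 symbol in the platform table, 256 several and 8248 none. A gene was read from its single-symbol probe set with the highest mean. limma 3.58.1 in R 4.3.3 fitted 1 mean per group to all 58 arrays (52 residual and 4.17 prior degrees of freedom). Its 12 contrasts gave two-sided p-values, adjusted by Benjamini-Hochberg over all probe sets with a threshold of 0.05. Intervals are 95%. Correlations used deviations from group means with 100000 permutations of chicks within groups (10000 without 2 chicks). Named genes are the members, wider-list genes called in a CpG effect, the 2 smallest p in each direction for controls at D6 against 3 h, and the 3 genes most like each called member. The members and lists were chosen with earlier results of these data known. Marker lists and the wider eicosanoid lists were matched by current symbols and synonyms, and 4 matches are doubtful. Of these, BLNK and ALAS2 are on marker lists, and CBR1 and CYP4B1 are on the eicosanoid lists. In total 1644 rows share all values with another row; none is a member. Of these steps, only the limma fit of CpG against control was tested on simulated data. Scanner intensities were not used here, so signal over background is not known.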

Additional observations from a re-analysis of the deposited data

Results flagged for a closer look

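In the D3 CpG group, chick 20 lay far above the other 7 chicks in 2 genes. Its ALOX5AP value was 9.51, with the others at 8.26 to 8.79, and its PTGS2 value was 5.65, with the others at 4.95 to 5.21. The array of chick 20 is 1 of the 4 that stand apart from their group. In total 40 gene-and-group sets of 8 or 10 chicks were examined for such values and 2 were found, where chance gives about 1 in 20.

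The CpG effect differed between 3 h and D6 by a direct test in 3 genes: ALOX5AP by 1.18, MGST1 by 1.42 and LTA4H by 0.666 log2 units. With 6 marker scores as covariates none of the 3 passed.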

How the results depend on the processing

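No paired analysis was possible because the groups share no chick numbers and each chick was bled once. The alternatives were a filter on low means, fits of the compared groups alone, a trended robust prior, weights per array, a repeat of the quantile step, subtraction of array medians, a single probe set for each gene, a covariate from 18 W-linked probe sets, 6 cell type scores, and leaving out the arrays that stand apart. Of 123 recomputed counts of called genes or correlated pairs, 116 stayed within 1.5 times. With the 6 scores the count went from 4 to 0 at D6, from 3 to 0 for the change from 3 h to D6, from 3 to 0 for controls from D3 to D6, from 8 to 3 for controls from 3 h to D6, and from 2 to 1 for CpG chicks from 3 h to D3. Array weights gave 4 for the last comparison, and without the lowest 40% of probe sets CpG chicks from D3 to D6 gave 1 (LTA4H) in place of 0. With the 6 scores 40 of 104 estimates changed sign, none of them called there, against at most 9 of 104 in any other of the alternatives listed. Of the 40, 35 had not passed the test, and 5 had: the change from 3 h to D6 for MGST1 (-0.0750) and MGLL (-0.0660), controls from 3 h to D6 for MGST1 (0.0624) and PTGS2 (0.242), and CpG chicks from 3 h to D3 for MGST1 (-0.258). The scores were built from the same arrays, and the cause was not tested.

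Leaving out 1 array at a time gave 0 to 0 called genes at 3 h and at D3, 4 to 4 at D6, 0 to 0 for the changes from 3 h to D3 and from D3 to D6, and 1 to 3 for the change from 3 h to D6. In controls it gave 3 to 3 for 3 h to D3 and for D3 to D6 and 6 to 8 for 3 h to D6. In CpG chicks it gave 1 to 3, 0 to 1 and 2 to 3 for the same intervals. Sex is not in the labels; the W-linked mean, with 31 chicks at 4.75 to 5.82 and 27 at 7.16 to 7.80, changed no sign as a covariate. Batch and signal over background are not known, which limits what the dim PTGS2 and PTGES probe sets can show.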
